A study of Mus musculus with 6 samples.

Results

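The genes described here make, break down or read cyclic AMP (cAMP) and cyclic GMP (cGMP). The list held 39 mouse genes, chosen by name: 17 phosphodiesterases, 9 adenylyl cyclases, and the kinases, kinase inhibitors and exchange factors that act downstream. Of these, 36 had a row with their symbol alone in the deposited table of 23332 rows, and each gene was represented by its row of highest mean level. Adcy1, Pde5a and Rapgef4 had no such row and were not analysed here. The list was chosen with earlier results of these data known. The data compare medial with lateral motor neurons from lumbar cords of HB9::GFP mouse embryos (transgenic line mHB9-Gfp1b) on embryonic day 12, with 3 samples in each group. Both groups carried the transgene, in which the HB9 promoter drives green fluorescent protein in motor neurons, and in both the columns were cut apart before FACS. The labels do not say how many embryos were pooled per sample or whether replicates came from separate litters, so p-values measure only the spread between these samples.

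As background, adenylyl cyclases make cAMP, mostly under the control of G proteins, and guanylyl cyclases make cGMP in response to nitric oxide or natriuretic peptides. Phosphodiesterases degrade one or both messengers. Protein kinase A (PKA) and the Epac exchange factors read cAMP, and protein kinase G (PKG) reads cGMP. In growing neurons the balance of these messengers is known to shape how growth cones answer guidance cues, and in embryonic spinal neurons cyclic nucleotides also tune excitability.

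The 3 medial samples had markers of the medial column and the 3 lateral samples those of the lateral column: the 4 medial genes Lhx3, Lhx4, Mecom and Epha3 all passed as higher in medial samples, and the 5 lateral genes Foxp1, Aldh1a2, Lhx1, Etv4 and Sema3e all passed as lower there. Mnx1, the gene of the HB9 protein whose promoter drives the reporter, was itself higher in the medial samples by 1.42 ± 0.09 (log2, SE). Of 8 genes of motor neurons in general, 2 were higher in the medial samples (Isl2 and Mnx1) and 3 lower (Isl1, Prph and Ret). Arrays within a group correlated over all rows with r between 0.987 and 0.993, and a medial with a lateral array with r between 0.980 and 0.988. All values below are log2 array levels. A level of one row cannot be set against that of another gene, so differences are given between groups within a row, as medial minus lateral. The table has no detection calls. The rows of 801 olfactory and vomeronasal receptor genes, which motor neurons are not known to use, had a 95th percentile of 6.13, and 8 of the 36 genes had means under it in both groups: Pde1a, Pde3a, Pde4c, Pde8a, Pde8b, Adcy4, Prkg2 and Pkib. For those a difference between the columns could be hidden by background. The bound is not firm, since the muscle actin gene Acta1 had a mean of 7.44. Of the 36 genes, 15 had a mean under that level in at least 1 group, among them Pde7b, Pde1c, Adcy8 and Prkg1. The fold values of such genes are less certain.

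Medial motor neurons had less of 5 of these genes than lateral motor neurons, and more of 1. The phosphodiesterase genes Pde7b, Pde2a and Pde4b were 2.84-fold, 1.90-fold and 1.91-fold lower in the medial samples, the cGMP-dependent kinase gene Prkg1 was 2.33-fold lower and the adenylyl cyclase gene Adcy8 was 1.63-fold lower. Pde1c was 1.51-fold higher. The other 30 genes did not pass, and the PKA subunits and inhibitors were among them without exception. The 6 calls were not equally firm. With 1 sample left out in turn, Pde7b and Pde2a passed in 6 of 6 fits, Pde4b in 2, Adcy8 and Prkg1 in 1 each and Pde1c in 0. The reported limma test used all rows and all 6 samples, with Benjamini-Hochberg adjustment and a threshold of 0.05. In it 6 of 36 genes (16.7%) passed, where 3.07% of all rows and 3.8% of genes represented by 1 row each did. By direction, 5 of 36 (13.9%) were lower against 1.94% of all rows, and 1 of 36 (2.78%) was higher against 1.13% of all rows. All 6 also differed by at least the 1.5-fold that the series design names, a joint condition that 2.69% of all rows met. Because the list was chosen with earlier results of these data known, these shares describe it and are no independent test. In these bulk samples, fewer cells that express a gene and less RNA per cell cannot be told apart.

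**Figure D1:**
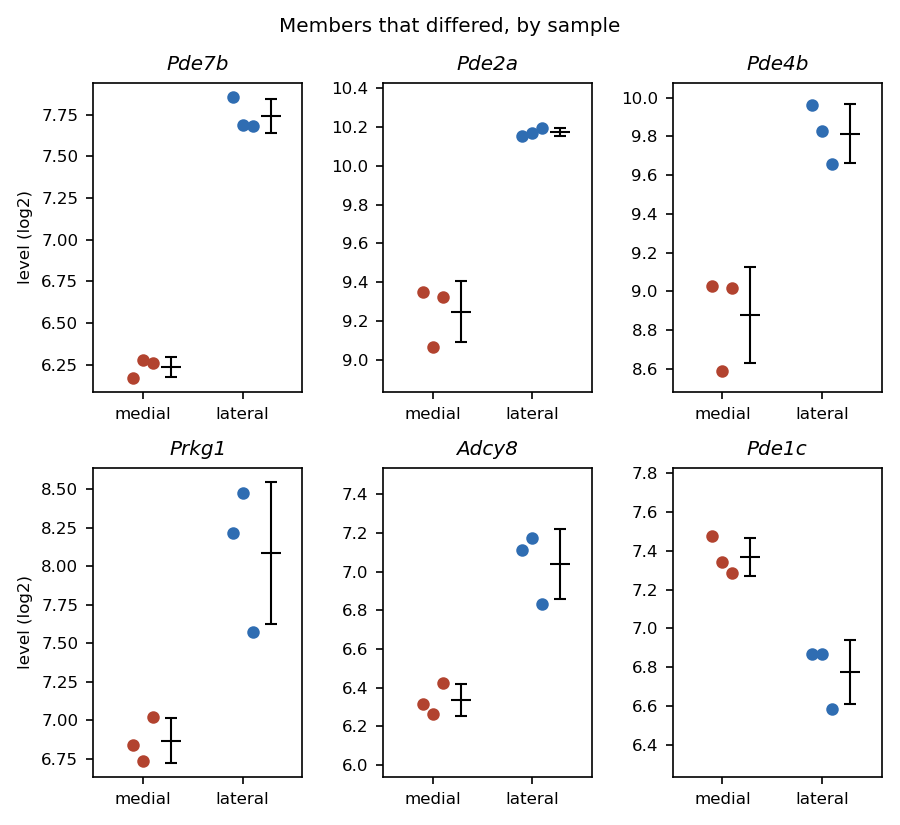
Array level (log2) of the 6 genes that passed, by sample. Each point is 1 of 3 medial (left) or 3 lateral (right) samples, and the bars give the mean and SD of each group. In each panel the groups stand apart, with a gap between their nearest samples of 0.41 for Adcy8 and 1.40 for Pde7b, and lateral replicate 3 is the lowest lateral sample in each panel except that of Pde2a.

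The clearest difference was in Pde7b, which encodes a phosphodiesterase specific for cAMP. Its levels were 6.17, 6.28 and 6.26 in medial replicates 1, 2 and 3, against 7.86, 7.69 and 7.68 in lateral replicates 1, 2 and 3. The medial samples lay close to the background bound of 6.13 and the lateral samples well above it, and the groups did not overlap. The difference was −1.50 ± 0.08 (SE, limma adjusted p = 6.90e-04, n = 3 per group). Pde7a, the gene of the related enzyme, was measured at 9.92 ± 0.08 in the medial and 9.86 ± 0.07 in the lateral samples (SD, n = 3), a difference of 0.05 with a 95% confidence interval from −0.14 to 0.25. Whether the difference of Pde7b exceeds that of Pde7a was not tested in itself, but the interval for Pde7b, from −1.71 to −1.30, lay outside that of Pde7a.

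Pde2a encodes an enzyme that degrades both messengers and whose breakdown of cAMP is stimulated by cGMP. Its levels were 9.35, 9.06 and 9.32 in the medial samples and 10.16, 10.17 and 10.20 in the lateral samples. The lateral samples lay close together, and medial replicate 2 was the lowest of the 6. The difference was −0.93 ± 0.10 (SE, limma adjusted p = 0.00597). Of the other genes whose enzymes hydrolyse both messengers, Pde10a differed by 0.11 (95% confidence interval −0.10 to 0.31), Pde3b by −0.06 (−0.27 to 0.16) and Pde3a by −0.17 (−0.36 to 0.01). None of these 3 passed, and the Pde3a row lay under the background bound.

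Pde4b belongs to the rolipram-sensitive enzymes that are specific for cAMP, and by the rows used here it was the one member of its 4-gene family that passed. Its levels were 9.03, 8.59 and 9.02 in the medial samples and 9.96, 9.83 and 9.66 in the lateral samples, without overlap. The difference was −0.94 ± 0.15 (SE, limma adjusted p = 0.0254), and it held in 2 of 6 leave-one-out fits (adjusted p up to 0.0994). It was lost without medial replicate 1, medial replicate 3, lateral replicate 1 or lateral replicate 2. Pde4a differed by −0.11 (95% confidence interval −0.36 to 0.15) and Pde4c by 0.002 (−0.22 to 0.22).

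Pde4d gave a split answer. The row with the highest mean (identifier 6810067) had medial levels of 9.43, 9.18 and 9.37 and lateral levels of 9.40, 9.22 and 9.16, and its difference of 0.07 ± 0.10 did not pass (SE, limma adjusted p = 0.860). The other row with the symbol Pde4d (identifier 6810084) had medial levels of 7.38, 7.24 and 7.50 and lateral levels of 6.72, 6.74 and 6.75, and passed as higher in the medial samples by 0.63 ± 0.09 (SE, limma adjusted p = 0.0168). This gene has many transcripts from separate start sites. Which of them each row reads was not determined here. The row that passed is not counted among the 6. Of the 39 genes, Pde4d was the only one with more than 1 row that carried its symbol alone.

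The cAMP-specific enzymes of the Pde8 family gave small differences at low levels. Pde8b was at 5.32, 5.39 and 5.39 in the medial samples and 5.80, 5.56 and 5.67 in the lateral samples, a difference of −0.31 ± 0.09 that did not pass (SE, limma adjusted p = 0.170). Pde8a differed by −0.16. Pde9a, whose enzyme is specific for cGMP, was at 9.47 ± 0.07 in the medial and 9.56 ± 0.08 in the lateral samples (SD, n = 3), a difference of −0.09 (95% confidence interval −0.28 to 0.11).

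The calmodulin-stimulated enzymes of the Pde1 family couple calcium to the breakdown of both messengers. Of its 3 genes, Pde1c passed as higher and the other two did not pass. Pde1c stood at 7.48, 7.34 and 7.29 in the medial samples, against 6.87, 6.87 and 6.59 in the lateral samples, and was higher in the medial samples by 0.59 ± 0.11 (SE, limma adjusted p = 0.0426). The groups did not overlap, but the call was lost when any 1 of the 6 samples was left out (adjusted p from 0.0756 to 0.153). Pde1b stood at 9.19, 9.09 and 9.25 in the medial samples, against 8.96, 8.82 and 8.69 in the lateral samples. Its difference of 0.35 ± 0.10 did not pass (SE, limma adjusted p = 0.159), although the groups did not overlap. Pde1a, at 4.35 ± 0.08 in the medial and 4.38 ± 0.08 in the lateral samples (SD, n = 3), lay below the background bound. Over all 16 measured phosphodiesterases, 3 passed as lower and 1 as higher, and the median difference was −0.07, where the median over all rows was 0.02. Of all rows, 1.94% passed as lower and 1.13% as higher.

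**Figure D2:**
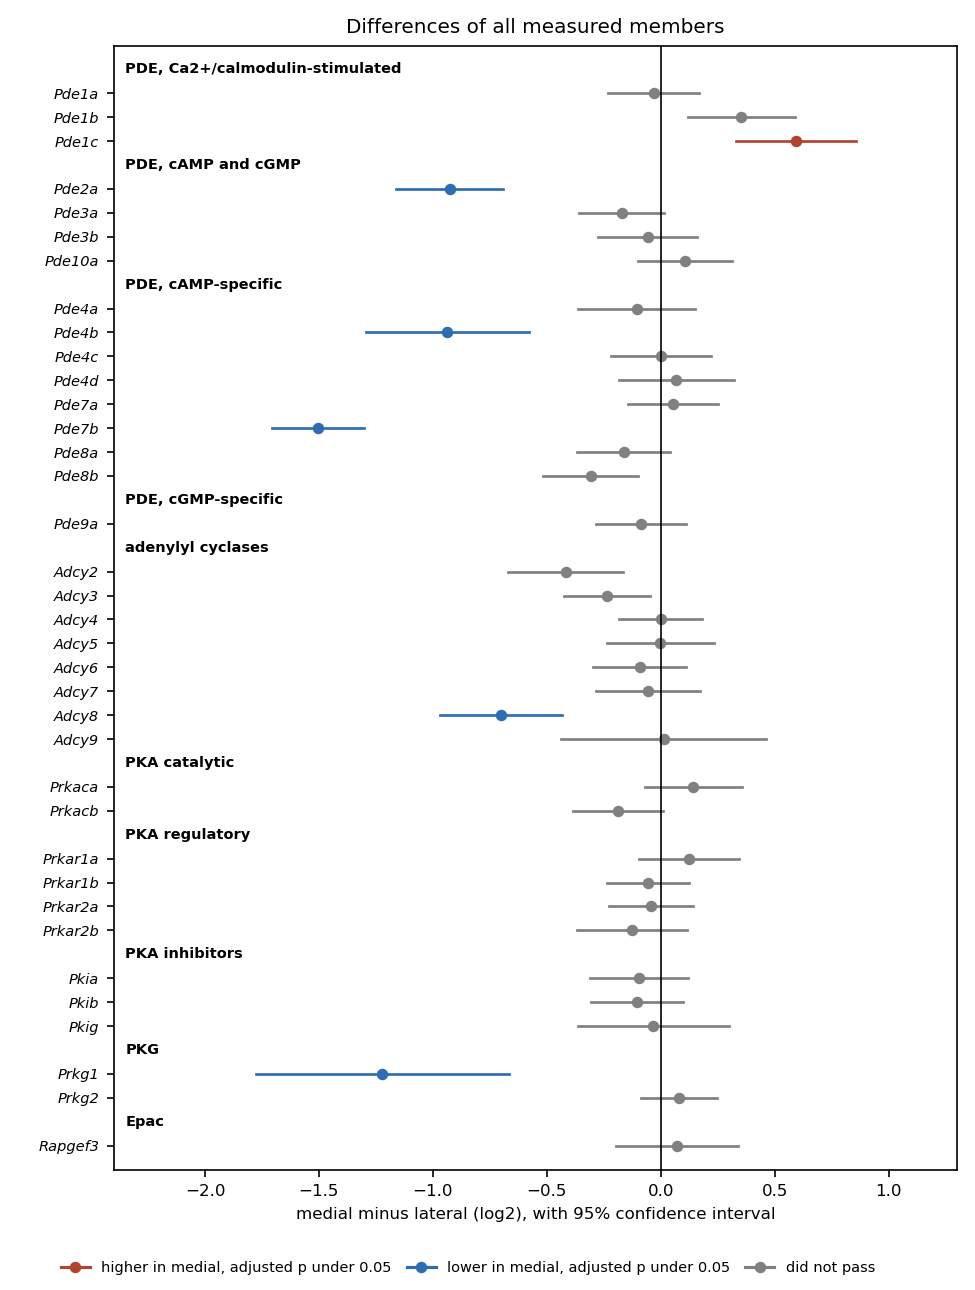
Difference between medial and lateral samples (log2, points) with its 95% confidence interval (lines) for the 36 measured genes, ordered by role. The 5 genes lower in the medial samples (blue) and Pde1c (red) lie away from 0, and the PKA subunits and inhibitors lie between −0.19 and 0.14.

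Promoter sequence was looked up for the genes that passed, since several of them were lower in the same samples. RefSeq windows on GRCm38.p6, each from 250 bases before to 50 after an annotated start, were at hand for 31 of the 39 genes and for 5 of the 6 that passed, which together had 15 windows. They were searched on both strands for TGACGTCA, the cAMP response element (CRE) bound by CREB, for its core TGACG, which the full element contains, for TAATTA, a core that LIM homeodomain and other homeodomain factors bind, and for TGTTTAC, a core that forkhead factors such as Foxp1 bind. These motifs were chosen after the values were seen. A match was found in 4 of the 15 windows, 1 each for Pde7b, Pde4b, Pde2a and Pde1c. Of all 32851 windows, 20.8% held TGACG alone, and the share with any of the motifs was not counted. The count of 4 therefore does not set these genes apart from others. These 4 are shown, with the window of Gucy1b1, whose values follow below. Of the other cGMP genes searched, both windows of Gucy1a1 held no match and the window of Nos1 held TGACG 130 bases before the start (not shown). Capitals mark the matched letters, each sequence runs 5′ to 3′ on the strand of its gene, and CGTCA is TGACG read on the opposite strand, as GTAAACA is TGTTTAC. Distances are to the first matched letter.
Pde7b promoter, chr10:20548279-20548578, minus strand: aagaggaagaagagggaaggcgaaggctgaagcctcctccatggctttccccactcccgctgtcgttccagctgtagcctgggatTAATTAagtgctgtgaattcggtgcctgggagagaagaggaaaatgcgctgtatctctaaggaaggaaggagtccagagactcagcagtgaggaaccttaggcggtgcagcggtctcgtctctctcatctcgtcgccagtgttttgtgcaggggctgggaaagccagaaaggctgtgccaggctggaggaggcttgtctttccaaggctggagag
Pde4b promoter, chr4:102421305-102421604, plus strand: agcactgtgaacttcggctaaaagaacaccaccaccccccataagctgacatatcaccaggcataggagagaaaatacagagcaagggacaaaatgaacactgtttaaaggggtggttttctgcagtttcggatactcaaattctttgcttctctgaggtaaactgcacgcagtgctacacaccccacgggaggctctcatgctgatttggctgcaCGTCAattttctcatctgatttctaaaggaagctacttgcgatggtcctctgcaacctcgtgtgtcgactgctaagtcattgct
Pde2a promoter, chr7:101450270-101450569, plus strand: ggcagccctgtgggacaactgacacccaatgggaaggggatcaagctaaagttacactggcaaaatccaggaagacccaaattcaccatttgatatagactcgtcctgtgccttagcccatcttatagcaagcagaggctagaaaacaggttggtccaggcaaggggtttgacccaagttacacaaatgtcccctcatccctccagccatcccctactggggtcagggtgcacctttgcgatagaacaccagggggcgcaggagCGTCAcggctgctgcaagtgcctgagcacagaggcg
Pde1c promoter, chr6:56369585-56369884, minus strand: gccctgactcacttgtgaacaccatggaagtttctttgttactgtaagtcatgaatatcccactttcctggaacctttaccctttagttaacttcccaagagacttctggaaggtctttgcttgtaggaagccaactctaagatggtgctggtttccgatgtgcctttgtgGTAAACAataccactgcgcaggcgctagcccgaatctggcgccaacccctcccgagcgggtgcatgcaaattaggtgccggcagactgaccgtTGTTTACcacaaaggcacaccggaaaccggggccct
Gucy1b1 promoter, chr3:82074662-82074961, minus strand: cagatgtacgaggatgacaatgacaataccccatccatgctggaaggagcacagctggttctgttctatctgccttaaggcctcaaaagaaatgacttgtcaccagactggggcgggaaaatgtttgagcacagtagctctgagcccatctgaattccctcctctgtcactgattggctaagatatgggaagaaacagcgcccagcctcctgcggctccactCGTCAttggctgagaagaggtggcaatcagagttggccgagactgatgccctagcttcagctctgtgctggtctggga
The Pde7b window holds TAATTA 165 bases before the start, a motif found in 5.29% of all 32851 windows. TGACG lies 34 bases before the start in Pde4b, 14 bases after it in Pde2a and 28 bases before it in Gucy1b1, and 20.8% of all windows hold it. The Pde1c window holds TGTTTAC 79 bases before and 14 bases after the start, where 3.65% of all windows hold at least 1 match. The full CRE, found in 1.79% of all windows, was in none of the 15. A match is a description of these letters only. The arrays do not tell which start was used, and the remaining windows of these genes held none of the motifs.

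Among the 8 measured adenylyl cyclases, 1 passed as lower in medial samples and none as higher, with 3 of the 8 at an unadjusted p under 0.05. Of all rows, 1.94% passed as lower, 1.13% passed as higher and 13.4% had an unadjusted p under 0.05. Adcy8, a cyclase stimulated by calcium and calmodulin, was at 6.32, 6.27 and 6.43 in the medial samples, against 7.11, 7.17 and 6.83 in the lateral samples. The medial samples were near the background bound, and the groups did not overlap. The difference was −0.70 ± 0.11 (SE, limma adjusted p = 0.0255). It passed only without lateral replicate 3 (adjusted p = 0.0183) among the 6 leave-one-out fits, and the adjusted p reached 0.103 in the others.

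Adcy2, which G protein beta-gamma subunits stimulate, was at 9.11, 8.997 and 8.98 in the medial samples, against 9.64, 9.35 and 9.36 in the lateral samples. Its difference of −0.42 ± 0.10 did not pass (SE, limma adjusted p = 0.122), though the groups did not overlap, and 3 of the 10 alternatives with all samples brought it under the threshold (adjusted p from 0.0256 to 0.126). Adcy3, the cyclase of neuronal cilia and of olfactory neurons, was at 7.41, 7.36 and 7.47 in the medial samples, against 7.74, 7.60 and 7.62 in the lateral samples, a difference of −0.24 ± 0.08 that did not pass (SE, limma adjusted p = 0.252). The remaining cyclases were close to no difference. Adcy5 and Adcy6, which calcium inhibits, differed by −0.001 (95% confidence interval −0.24 to 0.23) and −0.09 (−0.30 to 0.11). Adcy9 had the widest interval of the family, from −0.44 to 0.46, with lateral levels of 8.20, 7.63 and 7.55, and so a moderate difference in it would not have been detectable. Adcy4 and Adcy7 differed by 0.00 and −0.06.

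The PKA holoenzyme showed no gene that passed. Of its 2 catalytic subunits, 4 regulatory subunits and 3 inhibitor genes, 0 of 9 passed in limma and 0 of 9 had an unadjusted p under 0.05. Prkaca and Prkacb, the catalytic subunits, had medial means of 10.8 ± 0.12 and 11.3 ± 0.04 and lateral means of 10.7 ± 0.04 and 11.5 ± 0.10 (SD, n = 3). Their differences were 0.14 (95% confidence interval −0.07 to 0.36) and −0.19 (−0.39 to 0.01). For the regulatory subunits, which bind cAMP and hold the kinase inactive without it, the differences were 0.12 for Prkar1a (−0.10 to 0.34), −0.06 for Prkar1b (−0.24 to 0.12), −0.04 for Prkar2a (−0.23 to 0.14) and −0.13 for Prkar2b (−0.37 to 0.12). All 6 subunit genes had means over 10 in both groups. Their intervals therefore leave room for differences of up to about 0.39 on the log2 scale. The inhibitor genes Pkia, Pkib and Pkig, whose small proteins block the free catalytic subunit, differed by −0.10, −0.10 and −0.03, with Pkib under the background bound. Rapgef3, which encodes Epac1, an exchange factor for Rap activated directly by cAMP, was at 6.19 ± 0.10 in the medial and 6.12 ± 0.17 in the lateral samples (SD, n = 3), near the bound.

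Prkg1, the gene of the type I cGMP-dependent kinase, was at 6.84, 6.73 and 7.02 in the medial samples, against 8.21, 8.47 and 7.58 in the lateral samples. The groups did not overlap, but lateral replicate 3 lay well below the other lateral samples, and the gene had the widest spread within groups of all 36 genes. The difference was −1.22 ± 0.23 (SE, limma adjusted p = 0.0480). Without lateral replicate 3 the difference was −1.48 and the adjusted p 0.00923. Without any other single sample the call was lost (adjusted p up to 0.162), and it was also lost with robust variance moderation (adjusted p = 0.0524). Prkg2, the type II kinase gene, was below the background bound, at 4.40 ± 0.01 in the medial and 4.32 ± 0.05 in the lateral samples (SD, n = 3).

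Some genes outside the list that act in cGMP signalling also passed. Of 15 listed guanylyl cyclases, natriuretic peptides and receptors and nitric oxide synthase, 12 had a row, of which 3 passed as lower in medial samples, 1 as higher and 8 not at all, where 3.07% of all rows passed, 1.94% as lower and 1.13% as higher. The median difference of the 12 was −0.08. This list, too, was chosen with earlier results of these data known. Soluble guanylyl cyclase, the receptor for nitric oxide, is a heterodimer, and the genes of both measured subunits were lower in the medial samples. Gucy1a1, its alpha subunit, was at 6.84, 6.69 and 6.83 in the medial samples, against 9.13, 9.03 and 9.05 in the lateral samples, a difference of −2.28 ± 0.08 or 4.87-fold (SE, limma adjusted p = 1.33e-04). Gucy1b1, its beta subunit, was at 7.14, 6.95 and 7.02 in the medial samples, against 8.37, 8.01 and 8.04 in the lateral samples, a difference of −1.10 ± 0.12 or 2.15-fold (SE, limma adjusted p = 0.00659). The medial means, 6.79 for Gucy1a1 and 7.04 for Gucy1b1, lay over the background bound but under the 7.44 of Acta1. The fold values of both genes are therefore less certain. These genes are neighbours on chromosome 3, with 0 protein-coding genes of the RefSeq table between them.

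Nos1, the neuronal nitric oxide synthase gene, was at 6.19, 6.48 and 6.27 in the medial samples, against 7.97, 8.04 and 7.77 in the lateral samples, a difference of −1.61 ± 0.11 or 3.06-fold (SE, limma adjusted p = 0.00133). Its medial mean of 6.31 lay near the background bound of 6.13, so the size of the difference is uncertain. The synthase, the cyclase subunits, the kinase Prkg1 and the cGMP-stimulated phosphodiesterase Pde2a thus all had lower levels in the 3 medial samples than in any lateral sample. Groups did not overlap in 5 of the 12 measured genes of the cyclase, natriuretic and synthase list, in either direction, and in 19.3% of all rows. Prkg2, under the background bound, stood apart in the other direction, and the groups of Pde9a overlapped. The call of Prkg1 held in 1 of 6 leave-one-out fits. Of the natriuretic peptide and receptor genes, Npr3 passed and the others did not. Npr3, a natriuretic peptide receptor without a cyclase domain, was higher in the medial samples, at 7.98, 7.87 and 8.30, against 5.68, 6.25 and 6.40 in the lateral samples (difference 1.94 ± 0.21, SE, limma adjusted p = 0.00668). Its lateral mean of 6.11 lay under the background bound of 6.13, so the lateral level may not be above background and the size of the difference is uncertain. Npr2, the cyclase receptor for C-type natriuretic peptide, was at 9.04, 8.99 and 9.09 in the medial samples, against 8.68, 8.79 and 8.55 in the lateral samples, and its difference of 0.37 did not pass (limma adjusted p = 0.111). The receptor gene Npr1 differed by −0.02 and the peptide genes Nppa, Nppb and Nppc by 0.02, −0.24 and −0.09, with Npr1 and Nppb under the background bound. The calls of Gucy1a1, Gucy1b1, Nos1 and Npr3 held in each of the 6 leave-one-out fits, where the highest adjusted p was 0.0424, for Gucy1b1.

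**Figure D3:**
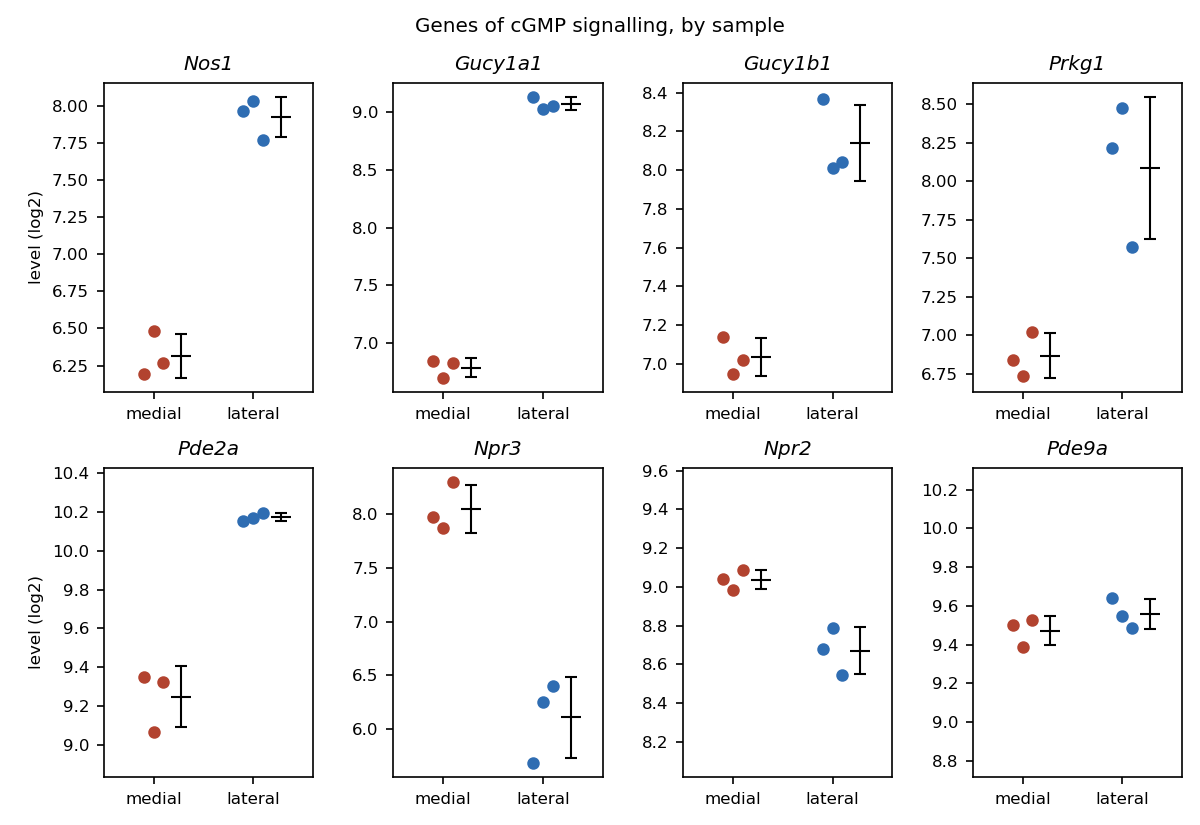
Array level (log2) of genes of cGMP signalling, by sample, with the mean and SD of each group. Nos1, Gucy1a1, Gucy1b1, Prkg1 and Pde2a lie lower in all 3 medial samples than in any of the 3 lateral samples, Npr3 and Npr2 lie higher, and the groups overlap for Pde9a. Of all rows, 19.3% have groups that do not overlap.

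Vascular cells also use soluble guanylyl cyclase and Prkg1. The endothelial genes Pecam1, Cdh5 and Kdr had means of 4.96, 4.66 and 4.40 in the medial samples and 5.08, 4.77 and 4.31 in the lateral samples, below the background bound. Of the 4 endothelial markers, Cldn5 passed, as higher in the medial samples by 0.45, at means of 6.05 and 5.60 that were below the bound too, and the summed log2 level of the list was 20.0 to 20.2 in the medial and 19.4 to 20.0 in the lateral samples. Of 8 pericyte and smooth muscle markers, a list added after these values were seen, 1 passed: Rgs5 was at 7.95, 7.79 and 8.06 in the medial samples, against 9.69, 9.79 and 9.61 in the lateral samples (limma adjusted p = 6.78e-04). Rgs5 had 2 rows, and only the row of higher mean is given here. That row differed by −1.77, where the median difference of the list was −0.06. The other 7 markers of this list did not pass and differed by −0.14 (Acta2) to 0.07 (Tagln). Among them, Acta2, Tagln, Myh11, Pdgfrb and Abcc9 had means below the bound in both groups. The summed log2 level of the list was 47.4 to 47.8 in the medial and 49.0 to 50.1 in the lateral samples. This sum includes Rgs5, by far the largest difference of the list. Among 5 mesenchyme markers Dcn passed as higher in the medial samples by 1.31, at means of 6.59 in the medial and 5.28 in the lateral samples. The other 4 did not pass (summed level of the list 33.2 to 34.6 in the medial and 32.5 to 33.4 in the lateral samples). Among 6 progenitor markers Sox2 passed as higher in the medial samples by 0.63, and the other 5 did not pass (summed level 44.3 to 45.0 in the medial and 44.1 to 44.5 in the lateral samples). Of the lists for interneurons (6 genes), sensory neurons (3), glia (3), blood (3), myeloid cells (4) and skeletal muscle (5), 0 genes passed in limma and 0 had an unadjusted p under 0.05. The part of other cells in the differences above was not tested.

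Elsewhere in the pathway most genes did not pass. With the cGMP genes included, 8 lists of the pathway named 94 genes, of which 70 had a row. Of these 70, 4 passed as higher, 4 as lower and 62 did not pass. Over all rows, 1.13% passed as higher and 1.94% as lower. The median difference of the 70 was −0.02. These lists were chosen with earlier results of these data known. Adcyap1, which encodes PACAP, a peptide that raises cAMP through its receptor, was at 8.99, 8.87 and 9.10 in the medial samples, against 7.21, 7.03 and 7.26 in the lateral samples (difference 1.82 ± 0.10, SE, limma adjusted p = 6.75e-04). Its lateral mean of 7.17 lay under the 7.44 of Acta1, so the size of the difference is less certain. The gene of the PACAP receptor, Adcyap1r1, differed by 0.34 and did not pass (limma adjusted p = 0.141), and in the list of receptors and peptides that raise cAMP 14 of 15 measured genes did not pass.

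Rapgef5, an exchange factor for Rap related to Epac, was at 11.34, 11.25 and 11.38 in the medial samples, against 10.05, 10.12 and 9.85 in the lateral samples (difference 1.31 ± 0.10, SE, limma adjusted p = 0.00152). Ppp1r1c, which encodes an inhibitor of protein phosphatase 1, was at 7.19, 7.10 and 7.34 in the medial samples, against 10.06, 10.09 and 10.28 in the lateral samples, a difference of −2.93 on the log2 scale. The medial mean of Ppp1r1c, 7.21, lay under the 7.44 of Acta1, so the size of its difference is less certain. Rapgef5 and Ppp1r1c were the genes that passed among the 8 measured of the other effectors and substrates.

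Of 11 measured A-kinase anchors, which tether PKA to sites in the cell, Ezr passed as higher in the medial samples at 8.76, 8.59 and 8.20 against 7.67, 7.80 and 7.58 in the lateral samples. Its call held in 1 of 6 leave-one-out fits (adjusted p up to 0.156), the one without medial replicate 3. The anchor gene Akap6 differed by 0.38 ± 0.09 and did not pass (SE, limma adjusted p = 0.0906). Akap7, Akap12 and Sphkap differed by −0.53, −0.31 and −0.38 and did not pass (limma adjusted p = 0.143, 0.166 and 0.19). Sphkap lay under the background bound. Of the 11 anchors, 7 had a negative difference and 5 had an unadjusted p under 0.05. Of all rows, 3.07% passed and 13.4% had an unadjusted p under 0.05. Among 6 measured G protein alpha subunits that control cyclases, 0 passed in limma. An unadjusted p under 0.05 was found for 3 of them (Gnal, Gnas and Gnaz), where 13.4% of all rows had one. Gnaz differed by −0.25 (limma adjusted p = 0.244). Gnal and Gnas, which encode stimulatory subunits, differed by −0.45 ± 0.10 and −0.32 ± 0.07 (SE, limma adjusted p = 0.0765 and 0.0934), and the inhibitory-class gene Gnao1, at 12.4 ± 0.04 in the medial and 12.3 ± 0.05 in the lateral samples (SD, n = 3), by 0.05. Of 7 measured CREB family and coactivator genes, 5 cyclic nucleotide-gated and HCN channels and 6 further phosphodiesterase genes, 0 passed in limma and 0 had an unadjusted p under 0.05. Creb1, by the row of higher mean of its 2 rows, differed by −0.05, the channel gene Hcn2 by −0.10 and Pde6d by −0.06.

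Of the 36 genes, 13 (36.1%) had medial and lateral samples that did not overlap, where 19.3% of all rows did. The median spread within groups was 0.09 (SD, log2) for the 36 genes, where it was 0.14 for all rows, and their median level was 8.33, against 6.78 over all rows. The difference was negative for 25 of the 36 genes, or 69.4%, where 45.5% of all rows had a negative difference, but most of these were small: the median over the 36 was −0.06. At an unadjusted p under 0.05, 10 of 36 genes (27.8%) were counted, where 13.4% of all rows were. Since the list was chosen with earlier results of these data known, these shares are descriptions only. Pde7b and Pde2a passed in all 10 alternatives with all samples and in all 6 leave-one-out fits.

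**Figure D4:**
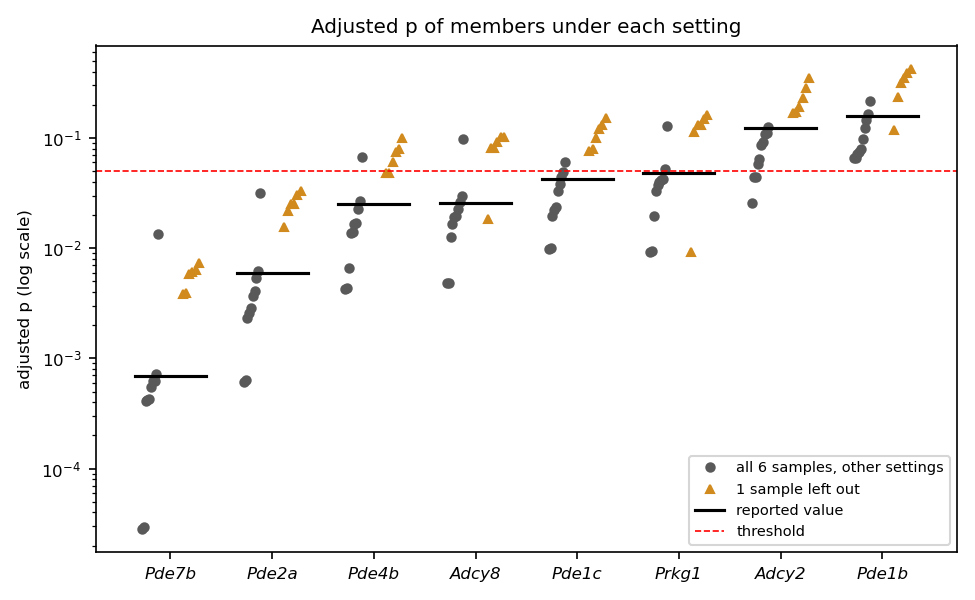
Adjusted p (log axis) of 8 genes under each setting. The black line is the reported value, circles are the 10 alternatives that kept all 6 samples, triangles the 6 fits with 1 sample left out, and the dashed line is the threshold of 0.05. Pde7b and Pde2a stay under the line throughout, whereas Pde4b, Adcy8, Pde1c and Prkg1 cross it.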

How the data were processed

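Total RNA of sorted motor neurons was labelled with biotin and hybridised to arrays, 1 array per sample, per the labels' protocols. The authors deposited processed values per row and array, which were read as log2 from their range of 2.49 to 14.1. The summarization and normalization behind them, and any centring, were not given in the sources used here. The submitters' processing notes name the genome build mm9. Array medians lay between 6.73 and 6.84. Precision is limited by the number of arrays.

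Groups and replicate numbers came from the sample titles. All 23332 rows entered a two-sided limma 3.58.1 fit (R 4.3.3, functions lmFit and eBayes) of medial minus lateral without a block or a filter, with Benjamini-Hochberg adjustment over all rows, a threshold of 0.05 and 95% confidence intervals. Symbols came from the probe annotation of the platform, using the 14996 rows with a single symbol. A row shared by Pkig and another gene was not used. PowerExpress, which the series design names, was not run. The fit was tested on simulated data. Alternatives changed the scaling, the variance moderation, the rows tested, the threshold, a replicate block and the samples kept.

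The gene list and the pathway and marker lists were chosen with earlier results of these data known. By the rule for named genes, all 39 are named. Those with an unadjusted or adjusted p under 0.05 are given by sample. Each pathway list is represented by its genes that passed and the gene with the highest mean, and some lists by further genes.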

Additional observations from a re-analysis of the deposited data

How the results depend on the processing

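The list counts rested on few samples. With any 1 sample left out, 2 to 5 of the genes passed as lower and 0 as higher in limma (2 as higher at an unadjusted p under 0.05 in each fit), 2 to 5 passed with a fold of at least 1.5, and 326 to 538 rows passed in all. The lowest row count was without medial replicate 3. The fixed replicate block gave 2 lower, 0 higher (2 at an unadjusted p under 0.05) and 2 with the fold, with 481 rows: it ended the calls of Pde4b (adjusted p = 0.0678), Adcy8 (0.0976), Pde1c (0.0610) and Prkg1 (0.129), but not of Pde7b (0.0133) or Pde2a (0.0315). The random block gave 5 lower, 1 higher and 6 with the fold, with 990 rows. Whether replicate numbers pair the samples was not settled. The descriptions of same-numbered medial and lateral samples end in a shared number whose meaning is not stated. Deviations of same-numbered samples correlated at 0.351, 0.0669 and 0.0151, not all over 0.1, and the reported values use no block. Medial replicate 2 correlated best with lateral replicate 3 (0.299). At an adjusted p under 0.01, 2 genes were lower, 0 higher (2 at an unadjusted p under 0.05) and 2 met the fold, of 277 rows. Using the row with the lowest mean for Pde4d gave 2 higher. The other alternatives gave 4 to 6 lower and 1 higher, and 702 to 1036 rows.

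Genes that did not pass changed sign where their difference was near 0, and the cause was not tested. With a sample left out the range was −0.0672 to 0.0142 for Pde1a, −0.0989 to 0.00745 for Pde3b, −0.0628 to 0.0455 for Pde4c, −0.0365 to 0.0289 for Adcy4, −0.0575 to 0.0813 for Adcy5, −0.120 to 0.0116 for Adcy7, −0.109 to 0.214 for Adcy9, −0.00643 to 0.160 for Rapgef3 and −0.139 to 0.0585 for Pkig. Array weights gave −0.0273 for Pde4c, 0.00924 for Adcy4, 0.0594 for Adcy5 and 0.0737 for Pkig. Median centring gave 0.00978 for Adcy4 and 0.00835 for Adcy5, and quantile normalization 0.00564 for Adcy4. No gene that passed changed sign. Low levels limit what can be seen for the 8 genes under the background bound.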
